A study of Homo sapiens with 10 samples.

Results

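The ligands of the tumour necrosis factor (TNF) superfamily described here are 9 genes: TNF, LTB, TNFSF4, TNFSF9, TNFSF10, TNFSF12, TNFSF13B, TNFSF14 and TNFSF15. They were found by symbol and Ensembl identifier among the 61587 genes of a table of read counts, and each matched 1 row. The counts came from bulk RNA-seq of RPTEC/TERT1, a line of human renal proximal tubule epithelial cells immortalised with telomerase. Irradiated cells (n = 5) received 10 Gy of gamma irradiation, control cells (n = 5) were mock irradiated, and polyadenylated RNA was collected 7 days later from both. The labels name no other treatment, and the replicate numbers 1 to 5 link 1 control sample with 1 irradiated sample. All samples came from 1 line, and nothing in the sources used here says that the replicates were separate cultures, so the p-values measure the spread between these samples, which may be technical. The labels list the tissue as kidney and the cells as primary, although the line is immortalised.

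Ligands of this family are made mostly as type II membrane proteins that assemble as trimers. Proteases can release several of them from the cell surface, and each binds receptors of the TNF receptor superfamily. Receptors with a death domain can lead to apoptosis through FADD and caspase-8. Most others recruit TRAF proteins and activate NF-κB. Injured tubular epithelium is a known source of such ligands, and most of the family is best known from leucocytes.

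Counts on genes summed to between 66269311 and 131555873 per sample. The deepest sample was control replicate 2 and the shallowest was irradiated replicate 2. CDKN1A, a cell cycle inhibitor induced by p53, and MKI67, a marker of proliferating cells, served as a check of the exposure. CDKN1A stood at 66.7 to 80.9 CPM (read counts scaled to the size of the library, with TMM factors) in 4 control samples, at 208 in control replicate 3 and at 584 to 768 in irradiated samples. MKI67 stood at 60.4 CPM in control replicate 3 and 76.7 in control replicate 1, against 217 to 234 in the other 3 control samples and 15.3 to 29.6 in irradiated samples. Control replicate 3 stood apart in both genes and control replicate 1 in MKI67, and values without them are given below for some genes. The line was checked against markers of its tissue. Tubule markers summed to 2632 to 3024 CPM in control and 2581 to 3387 CPM in irradiated samples, with PAX8 and EPCAM abundant. Of the 13 tubule markers, 10 reached 200 counts over all samples, among them the proximal tubule genes CUBN, AQP1, GGT1 and ANPEP. HNF4A, LRP2 and SLC34A1, which also mark mature proximal tubule, did not, with 12, 17 and 86 counts over all 10 samples. In the edgeR fit described below, 0 of the 10 tested tubule markers were called higher, 3 were called lower and 7 did not pass. Over all genes tested, 22.7% were called lower. The summed level, which includes the keratins KRT8 and KRT18, does not show these falls.

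Of the 9 ligands, 8 reached 200 counts over the 10 samples and were tested. In edgeR's quasi-likelihood fit over 19006 genes, with the replicate number as a block and a Benjamini-Hochberg adjusted p under 0.05, 6 ligands were higher in irradiated samples, none was lower, and TNFSF4 and TNFSF13B did not pass. None was lower at an unadjusted p under 0.05 or with DESeq2 or limma-voom either. Among all genes tested 23.9% were called higher and 22.7% lower. In 5 ligands every irradiated sample lay above every control sample, which held for 14.6% of all genes tested. The median log2 fold change of the 8 ligands was 1.46, against -0.01 over all genes tested. Of the tested genes, 0.568% were called with a log2 fold change above 3, and TNF, LTB and TNFSF15 were among them. The 9 ligands were chosen with earlier results of these data known, so these comparisons with all genes are a description and not a test. In a bulk sample, more cells making a ligand and more RNA per cell cannot be told apart.

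**Figure D1:**
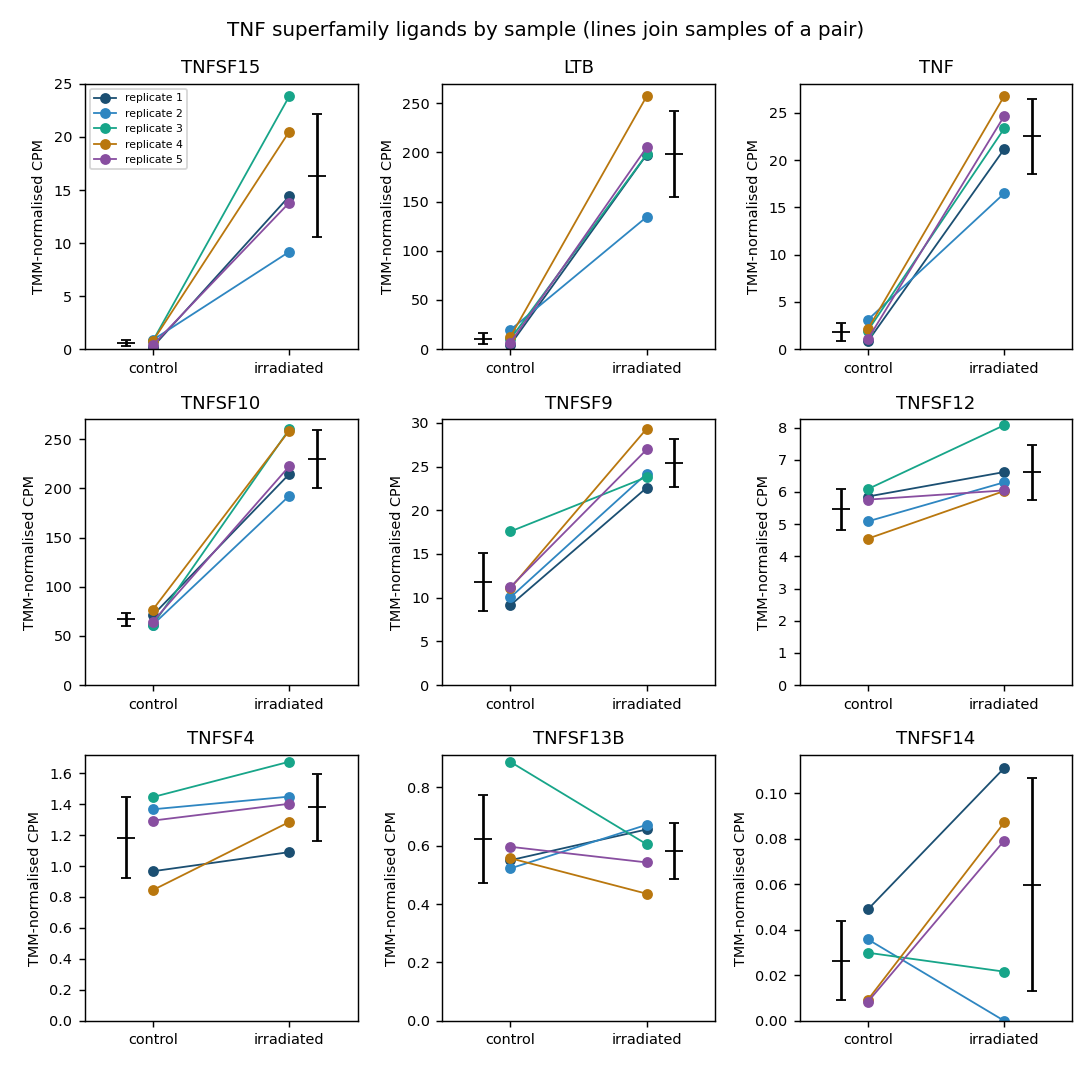
TMM-normalised CPM of each of the 9 ligands (vertical axes, from 0) in control and irradiated samples; points are samples, lines join samples of the same replicate number, and bars give the mean ± SD of 5 samples. The irradiated points lie above all control points for TNFSF15, LTB, TNF, TNFSF10 and TNFSF9, whereas the groups overlap for TNFSF12, TNFSF4, TNFSF13B and TNFSF14.

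TNF, the founding member of the family and a strong activator of NF-κB, was low in control cells. Its levels in control replicates 1 to 5 were 0.832, 3.11, 1.97, 2.13 and 1.07 CPM, and those in irradiated replicates 1 to 5 were 21.2, 16.5, 23.3, 26.8 and 24.7 CPM. The groups did not overlap, and the highest control sample and the lowest irradiated sample both carried replicate number 2. The mean rose from 1.82 ± 0.913 to 22.5 ± 3.93 CPM (SD, n = 5 each), with a log2 fold change of 3.71 (SE 0.32, 95% interval 2.97 to 4.46, edgeR adjusted p = 0.000108). This was the 43rd largest log2 fold change among 19006 genes.

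LTB, lymphotoxin beta, anchors lymphotoxin alpha at the membrane, and the resulting trimer binds the LTβ receptor. It was measured at 4.57, 19.6, 10.4, 12.7 and 6.64 CPM in control replicates 1 to 5 and at 198, 134, 198, 257 and 205 CPM in irradiated replicates 1 to 5. As for TNF, control replicate 2 was the highest control sample and irradiated replicate 2 the lowest irradiated sample. The mean was 10.8 ± 5.87 CPM in control and 199 ± 43.6 CPM in irradiated cells, and the log2 fold change was 4.34 (SE 0.37, 95% interval 3.48 to 5.19, edgeR adjusted p = 9.98e-05).

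TNFSF15, also named TL1A, is the ligand of the death domain receptor TNFRSF25. Control replicates 1 to 5 held 0.22, 0.88, 0.797, 0.771 and 0.395 CPM, from 18 to 123 reads each. Irradiated replicates 1 to 5 held 14.4, 9.18, 23.8, 20.5 and 13.8 CPM. The irradiated samples varied more than for TNF, with a coefficient of variation of 35.5% against 17.5%, yet the lowest of them was far above the control range. The log2 fold change of 4.72 (SE 0.32, 95% interval 3.97 to 5.47, edgeR adjusted p = 4.47e-05) was the largest of the ligands and the 10th largest of all genes tested.

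TNFSF10, or TRAIL, which triggers apoptosis through TNFRSF10A and TNFRSF10B, was already abundant in control cells. Its control values were 71, 61.3, 61.4, 76.7 and 64.5 CPM in replicates 1 to 5, and its irradiated values were 215, 192, 260, 259 and 223 CPM. Both groups were narrow, with coefficients of variation of 10.1% and 12.8%, and they did not overlap. The mean rose from 67 ± 6.74 to 230 ± 29.3 CPM, a log2 fold change of 1.77 (SE 0.07, 95% interval 1.60 to 1.94, edgeR adjusted p = 9.8e-06).

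TNFSF9, or 4-1BBL, is the ligand of the T cell costimulatory receptor TNFRSF9. Control replicates 1 to 5 gave 9.14, 10.0, 17.6, 11.1 and 11.2 CPM, and irradiated replicates 1 to 5 gave 22.6, 24.2, 23.8, 29.4 and 27 CPM. Control replicate 3 stood clear of the other 4 control samples and still below every irradiated sample. The log2 fold change was 1.14 (SE 0.14, 95% interval 0.82 to 1.46, edgeR adjusted p = 0.000483) with all pairs and 1.32 without replicate 3.

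TNFSF12, or TWEAK, the ligand of TNFRSF12A, differed least among the ligands that passed. It was measured at 5.86, 5.09, 6.09, 4.55 and 5.76 CPM in control replicates 1 to 5 and at 6.62, 6.3, 8.08, 6.03 and 6.05 CPM in irradiated replicates 1 to 5. The groups overlapped, although the irradiated sample was the higher in 5 of 5 pairs. The log2 fold change was 0.27 (SE 0.08, 95% interval 0.09 to 0.46, edgeR adjusted p = 0.0263), and the call was lost in 6 of 14 alternative analyses, where the adjusted p reached 0.10. Without the replicate block the adjusted p was 0.0783. Of its exonic bases, 13.7% are shared with the readthrough gene TNFSF12-TNFSF13 and another annotated gene, and reads falling there may not have been counted for TNFSF12.

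TNFSF4, or OX40L, costimulates T cells through TNFRSF4. Its control values were 0.966, 1.37, 1.45, 0.845 and 1.29 CPM and its irradiated values 1.09, 1.45, 1.67, 1.28 and 1.4 CPM, in replicate order. The groups overlapped over most of their range, although the irradiated sample was the higher in 5 of 5 pairs. The log2 fold change was 0.23 (SE 0.11, 95% interval -0.03 to 0.49, edgeR adjusted p = 0.123), so an increase of up to 1.41-fold lay within the interval.

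TNFSF13B, or BAFF, a survival factor for B cells, was measured at 0.55, 0.522, 0.887, 0.557 and 0.596 CPM in control and at 0.656, 0.672, 0.605, 0.435 and 0.543 CPM in irradiated replicates 1 to 5. The irradiated sample was the higher in 2 of 5 pairs. The log2 fold change was -0.09 (SE 0.17, 95% interval -0.48 to 0.30, edgeR adjusted p = 0.683).

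TNFSF14, or LIGHT, which binds TNFRSF14 and the LTβ receptor, had 42 counts in all and was not tested. Its counts were 4, 5, 3, 1 and 1 in control replicates 1 to 5 and 11, 0, 2, 8 and 7 in irradiated replicates 1 to 5. A count of 0, as in irradiated replicate 2, allows up to 0.0453 CPM in that library, for counting error only. With the minimum of 200 counts removed, where 10.2% of 44263 genes were called higher, its log2 fold change in edgeR was 1.06 (SE 0.68, adjusted p = 0.366), and it was not called.

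The 6 ligands that rose kept 1 order of change in all 5 pairs. On the log2 CPM scale, the irradiated minus control difference was larger for TNFSF15 than for LTB in 5 of 5 pairs, by 0.43 on average (SD 0.21). The difference for LTB exceeded that for TNF by 0.60 (SD 0.18), and that for TNF exceeded that for TNFSF10 by 1.97 (SD 0.93), also in 5 of 5 pairs each. TNFSF10 in turn moved more than TNFSF9, by 0.64 (SD 0.57), and TNFSF9 more than TNFSF12, by 0.86 (SD 0.47). Since the 5 pairs gave the order of the ligands as well as these differences, they are a description and were not tested.

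Per length of exon, which allows levels of different genes to be compared roughly, the makeup of the ligands differed between the groups. The length was that of all annotated exons of a gene not shared with another gene, and not of the RNA made. Genes with many or long annotated exons may therefore be placed too low beside compact ones. The sum over the 9 ligands was 31.7 to 40.5 CPM per kb (median 38.9) in control and 171.5 to 281.3 CPM per kb (median 233.4) in irradiated samples. TNFSF10 made up 44% to 65.2% of that sum in control samples, where it was the most abundant ligand in each, and 26.7% to 32.6% in irradiated samples. LTB made up 9.41% to 31.6% in control and 51.1% to 59.6% in irradiated samples, and was the most abundant ligand in each of the latter. TNFSF9 took 15.1% to 27.7% in control and 6.10% to 8.64% in irradiated samples, although its own level was higher in the latter. TNF took 1.57% to 4.58% and 5.67% to 6.30%, whereas TNFSF15, with the largest fold change, never exceeded 1.28%.

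**Figure D2:**
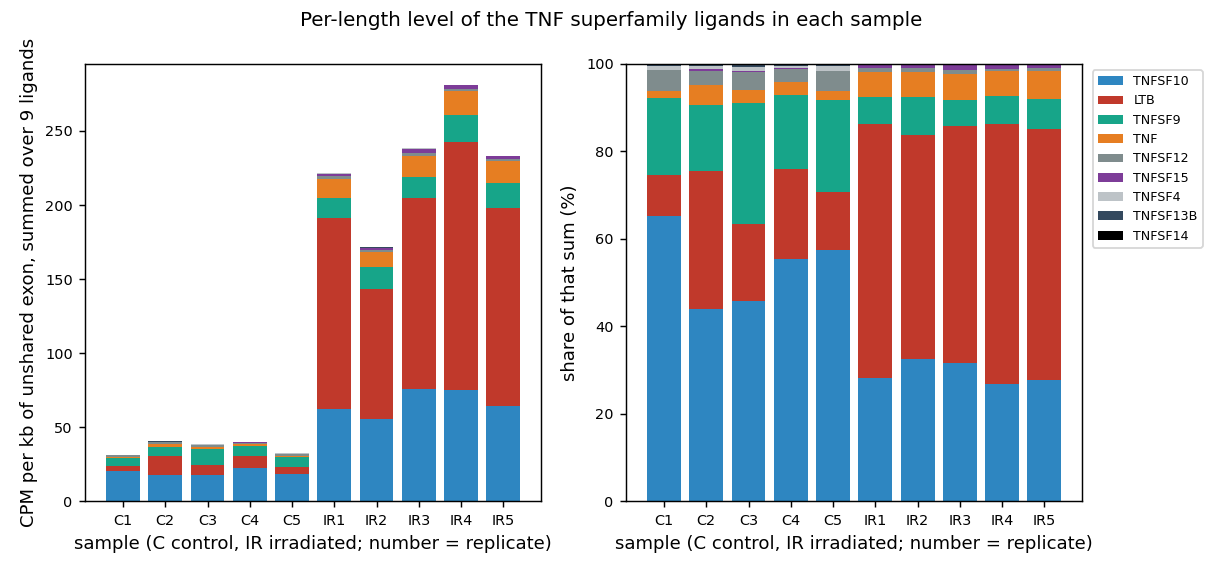
Left, level of the 9 ligands in each sample as CPM per kb of exon not shared with another gene, stacked by ligand from 0; right, each ligand's share (%) of that sum. C is control and IR irradiated, with the replicate number. TNFSF10 is the largest segment in the control samples and LTB in the irradiated samples, where the sum lies between 171.5 and 281.3 CPM per kb.

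In median level per kb, the order in control samples was TNFSF10 (18.7 CPM per kb), LTB and TNFSF9 (6.81 and 6.78), TNFSF12 (1.46), TNF (1.18), TNFSF4 (0.326), TNFSF13B (0.182), TNFSF15 (0.099) and TNFSF14 (0.00626). LTB and TNFSF9 could not be separated in control samples, since LTB spanned 2.98 to 12.8 and TNFSF9 5.59 to 10.8 CPM per kb. The ranges of TNF (0.496 to 1.85) and TNFSF12 (1.16 to 1.55) overlapped as well, as did those of TNFSF4 (0.213 to 0.365) and TNFSF13B (0.171 to 0.29). In irradiated samples the order was LTB (129 CPM per kb), TNFSF10 (64.7), TNFSF9 (14.8), TNF (13.9), TNFSF15 (1.85), TNFSF12 (1.6), TNFSF4 (0.354), TNFSF13B (0.198) and TNFSF14 (0.0166). In these samples 2 neighbouring pairs overlapped, TNFSF9 (13.8 to 18) with TNF (9.82 to 16) and TNFSF15 (1.18 to 3.06) with TNFSF12 (1.53 to 2.05).

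The spread between control samples was not alike across the ligands. In control cells the highest sample exceeded the lowest by 4.29-fold for LTB, 4.0-fold for TNFSF15 and 3.74-fold for TNF, against 1.25-fold for TNFSF10. TNF and LTB ranked the 5 control samples identically, with replicate 1 lowest, then 5, 3, 4 and 2, and they also ranked the 5 irradiated samples identically, with replicate 2 lowest, then 1, 3, 5 and 4. TNFSF15 shared the 2 lowest control replicates and the highest with them. Of 34 ligand, receptor, adaptor, processing and decay genes called higher, 19 had their smallest pair difference in replicate 2. The share over all genes called higher was not computed, so this is not shown to be particular to these genes. Without replicate 2 the log2 fold changes were 4.07 for TNF, 4.73 for LTB and 5.10 for TNFSF15. With replicates 2, 4 and 5 alone, which leaves out the control samples of low MKI67, they were 3.43, 3.98 and 4.33.

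**Figure D3:**
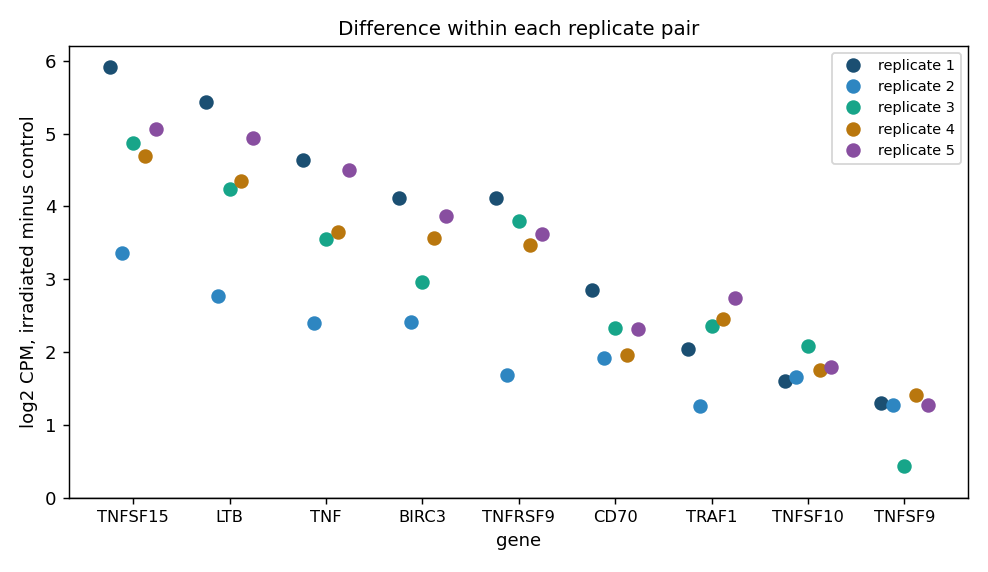
Difference in log2 CPM, irradiated minus control, within each of the 5 replicate pairs (vertical axis) for 5 of the ligands, CD70, TNFRSF9, BIRC3 and TRAF1; each point is 1 pair, coloured by replicate number. Replicate 2 gives the smallest difference for TNFSF15, LTB, TNF, BIRC3, TNFRSF9, CD70 and TRAF1, and replicate 3 for TNFSF9, at 0.44.

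The promoters of the ligands that moved most are shown with that of TNFSF10, the abundant ligand of control cells, so that the sequence before each start can be read beside its change. Each run is the 250 bases before a RefSeq start in build GRCh38.p14, on the gene's own strand, 5′ to 3′. RefSeq and GENCODE place some of these starts differently. For TNFSF15 the run lies inside the gene as GENCODE places it (chr9:114784652-114806039, minus strand). It precedes a RefSeq start that is downstream of the GENCODE 5′ end, and which start these cells used was not tested. Capitals mark exact matches to the motif patterns searched, so an unmarked run may still hold sites of the same factors. In TNF (chr6:31575315-31575564, plus strand) and TNFSF10 (chr3:172523431-172523680, minus strand) they mark a TATAAA box, and in TNFSF10 also GAAA repeated after any 2 bases, a core of interferon-response elements, read on the opposite strand. In LTB (chr6:31582426-31582675, minus strand) they mark an NF-κB consensus, read on the opposite strand. In TNFSF15 (chr9:114792531-114792780, minus strand) they mark a p53 half-site consensus, followed by the AP-1 motif TGANTCA.
TNF: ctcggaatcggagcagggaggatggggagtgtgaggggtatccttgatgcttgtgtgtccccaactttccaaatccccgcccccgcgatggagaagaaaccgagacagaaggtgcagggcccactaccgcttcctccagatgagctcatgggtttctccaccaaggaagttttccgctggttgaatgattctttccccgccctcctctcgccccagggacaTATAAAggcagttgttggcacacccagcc
LTB: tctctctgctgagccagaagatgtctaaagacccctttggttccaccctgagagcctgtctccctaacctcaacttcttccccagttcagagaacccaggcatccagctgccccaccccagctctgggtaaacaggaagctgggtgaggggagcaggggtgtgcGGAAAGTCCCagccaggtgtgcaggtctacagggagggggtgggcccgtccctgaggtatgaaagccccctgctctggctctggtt
TNFSF15: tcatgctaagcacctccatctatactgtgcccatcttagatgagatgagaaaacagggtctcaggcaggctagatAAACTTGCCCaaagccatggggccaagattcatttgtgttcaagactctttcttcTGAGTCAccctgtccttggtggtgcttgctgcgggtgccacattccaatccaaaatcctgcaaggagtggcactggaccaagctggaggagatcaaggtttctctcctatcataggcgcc
TNFSF10: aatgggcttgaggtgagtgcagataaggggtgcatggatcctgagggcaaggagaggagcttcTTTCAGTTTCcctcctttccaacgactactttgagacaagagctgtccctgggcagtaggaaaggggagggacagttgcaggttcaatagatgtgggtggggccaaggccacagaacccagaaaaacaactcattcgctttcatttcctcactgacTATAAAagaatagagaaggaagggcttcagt

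Of the 9 ligands, 8 had a RefSeq promoter in the table used. Both strands were searched, and no reported matches of different motifs overlapped. The NF-κB consensus occurred in 5.21% of 35116 promoters of this length and was present in LTB, 86 to 77 bases before the start, and in TNFSF14. TGANTCA occurred in 6.57% and was present in TNFSF15, 120 to 114 bases before the start, and in TNFSF14. The p53 half-site occurred in 5.57% and was present in TNFSF15, 175 to 166 bases before the start. The repeated GAAA occurred in 3.02% and was present in TNFSF9, TNFSF10 and TNFSF13B, and TATAAA occurred in 10.7% and was present in TNF, TNFSF9 and TNFSF10, 24 to 31 bases before the start. TNFSF14 was not tested and TNFSF13B did not pass the test. A match is a stretch of letters and not a measured binding site. Variant sites that depart from these patterns were not searched for, so a promoter without a match may still hold one.

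TNF and LTB are neighbours on chromosome 6 (GENCODE annotation of GRCh38), TNF at chr6:31575565-31578336 on the plus strand and LTB at chr6:31580525-31582522 on the minus strand, 2188 bases apart. The third ligand gene of this cluster, LTA, ends 1240 bases before TNF and had 45 counts in all. Within 100 kb of either gene lie 20 other protein-coding genes, of which 12 were tested. None was called higher by edgeR, although MICB (log2 fold change 0.24, SE 0.09) passed at an unadjusted p under 0.05 and was called by DESeq2, not by limma-voom. Lower were 3 genes (APOM, log2 fold change -0.70, SE 0.10, GPANK1, -0.28, SE 0.05, and PRRC2A, -0.26, SE 0.04), and the 12 values ran from -0.70 to 0.24. The shares over all genes tested were 23.9% called higher and 22.7% lower. TNFSF9 (chr19:6531026-6535924) and TNFSF14 (chr19:6661253-6670588) lie on either side of CD70, at 47258 and 57149 bases from it. C3, the central complement component, lies 7115 bases from TNFSF14 and rose by 1.61 on the log2 scale (SE 0.08). TNFSF4 (chr1:173183731-173207331) had no other protein-coding gene within 100 kb, and TNFSF15 (chr9:114784652-114806039) only the family ligand TNFSF8, 87303 bases away, which had 6 counts in all. TNFSF10 lies at chr3:172505508-172523475, TNFSF12 at chr17:7548508-7557890 and TNFSF13B at chr13:108251240-108308484.

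**Figure D4:**
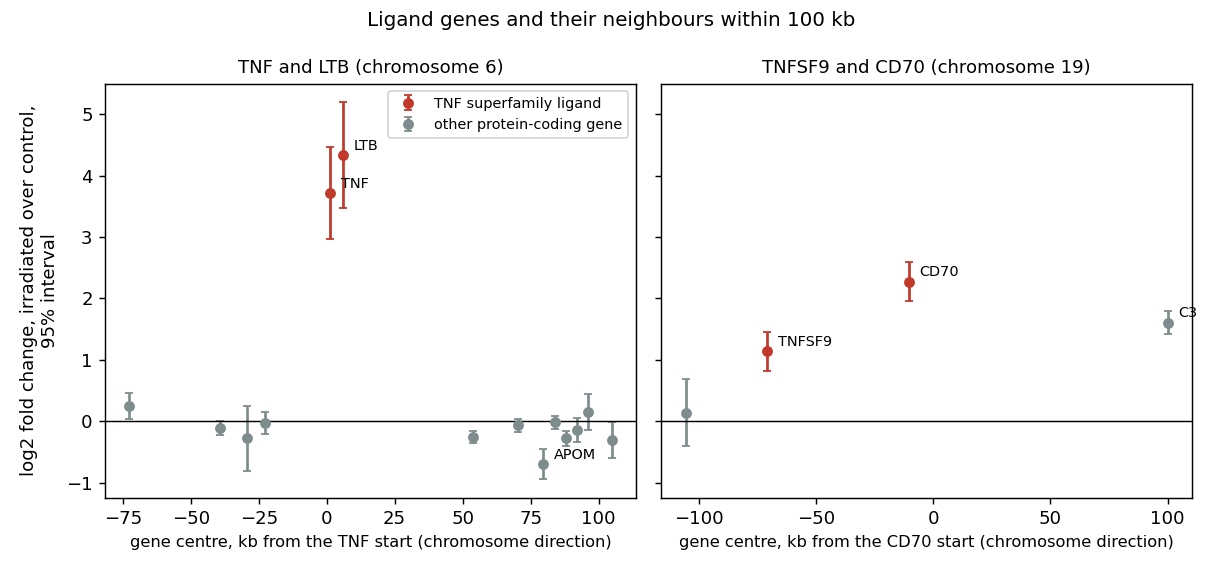
Log2 fold change, irradiated over control, with its 95% interval (vertical axis) of TNF superfamily ligands (red) and other tested protein-coding genes (grey) against the distance of the gene's centre from the start of TNF (left) or CD70 (right), in kb. TNF and LTB lie above 3.5 while the other 12 tested genes of their region lie between -0.70 and 0.24.

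Of the remaining 9 ligands of the superfamily, 3 reached the limit of the test. CD70, a costimulatory ligand of CD27, EDA, a ligand of ectodermal development, and TNFSF13, or APRIL, all rose. CD70 stood at 2.01, 3.92, 2.6, 4.93 and 4.23 CPM in control and 14.6, 14.9, 13.1, 19.2 and 21.2 CPM in irradiated replicates 1 to 5, without overlap (log2 fold change 2.27, SE 0.14, edgeR adjusted p = 3.16e-05). EDA was near the limit, with 15 to 24 reads per control sample and 15 to 68 per irradiated sample (log2 fold change 1.52, SE 0.23, adjusted p = 0.00151), and its irradiated replicate 2 stood at 0.224 CPM against 0.407 to 0.686 in the others. TNFSF13 ranged from 20.9 to 23.1 CPM in control and 27 to 37.1 CPM in irradiated samples (log2 fold change 0.47, SE 0.08, adjusted p = 0.00231), with 55.5% of its exonic bases shared with TNFSF12-TNFSF13. The other 6 were under the limit: LTA and TNFSF18 with 45 counts each, FASLG with 28, TNFSF11 with 10, TNFSF8 with 6 and CD40LG with 0. LTA, the partner of LTB, had 1 to 5 reads per control sample and 4 to 9 per irradiated sample, and its adjusted p without the limit was 0.0719. TNFSF18 had 0 to 3 reads per control sample and 6 to 8 per irradiated sample, with an adjusted p of 0.00549 without the limit. Over all 18 ligands, 11 were tested, 9 rose and none fell, and none fell at an unadjusted p under 0.05 or with DESeq2 or limma-voom either. In the edgeR fit 23.9% of all genes tested rose and 22.7% fell.

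Of 17 receptors that bind the 9 ligands, 12 were tested, 10 were higher in irradiated samples and 2 were lower. Over all genes tested, 23.9% were called higher and 22.7% lower. They are given here by the ligand that they bind. TNFRSF1A, the main TNF receptor of epithelium, was lower in 5 of 5 pairs, at 146 to 163 CPM in control and 114 to 138 CPM in irradiated samples (log2 fold change -0.39, SE 0.07, edgeR adjusted p = 0.00256), while TNFRSF1B, the second TNF receptor, had 36 counts in all. LTBR, the receptor of the LTB trimer, stood at 132 to 157 CPM in control and 146 to 171 CPM in irradiated samples, a log2 fold change of 0.14 (SE 0.04, adjusted p = 0.0293) that was lost in 8 of 14 alternatives, with an adjusted p of 0.118 without the replicate block. TNFRSF25, the receptor of TNFSF15, rose from 9.18 ± 2.87 to 20.2 ± 4.88 CPM (SD, n = 5 each, log2 fold change 1.16, SE 0.07, adjusted p = 2.69e-05).

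All 5 receptors of TRAIL rose. The death receptors TNFRSF10A and TNFRSF10B rose by 1.02 (SE 0.09) and 1.23 (SE 0.07) on the log2 scale, from 26.6 ± 3.99 to 53.7 ± 5.49 CPM and from 142 ± 15.5 to 334 ± 30.4 CPM (edgeR adjusted p = 0.000102 and 2.91e-05). The decoy receptors rose as well, TNFRSF10C by 1.89 (SE 0.09, 9.77 ± 1.42 to 36 ± 2.59 CPM), TNFRSF10D by 0.92 (SE 0.05, 18.2 ± 0.871 to 34.5 ± 1.2 CPM) and the soluble TNFRSF11B, or osteoprotegerin, by 1.82 (SE 0.26, 18.2 ± 7.18 to 60.6 ± 7.18 CPM). For these 5 receptors no irradiated sample overlapped the control samples. TNFRSF11B was lowest in control replicate 3, at 8.24 CPM, and its log2 fold change was 1.52 without that replicate. TNFRSF10C shares 33.0% of its exonic bases with other annotated genes, and TNFRSF10A 16.7%. TNFRSF10C and TNFRSF10D are close in sequence to the death receptors, so their counts are the less certain ones.

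TNFRSF9, the receptor of TNFSF9, was at 0.294, 1.75, 0.369, 1.03 and 0.756 CPM in control and 5.43, 5.67, 5.38, 11.7 and 9.54 CPM in irradiated replicates 1 to 5. The groups did not overlap, and its log2 fold change of 3.30 (SE 0.35, edgeR adjusted p = 0.000256) was the largest of the receptors. TNFRSF14, the receptor of TNFSF14, rose by 1.16 (SE 0.13) from 1.37 ± 0.314 to 3.01 ± 0.314 CPM, and TNFRSF12A, the receptor of TNFSF12, rose by 0.66 (SE 0.09) from 246 ± 42 to 386 ± 17.4 CPM. TNFRSF13C, the BAFF receptor, was lower in 5 of 5 pairs, at 0.422 ± 0.11 CPM in control and 0.107 ± 0.05 CPM in irradiated samples (log2 fold change -1.94, SE 0.33, adjusted p = 0.00229), from 4 to 82 reads per sample. TNFRSF4 (26 counts), TNFRSF17 (32) and TNFRSF13B (2) were under the limit. TNFRSF6B, the decoy of TNFSF14 and TNFSF15, was listed at 0 in every sample, and all its exonic bases are shared with other annotated genes, so nothing can be said of its level.

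**Figure D5:**
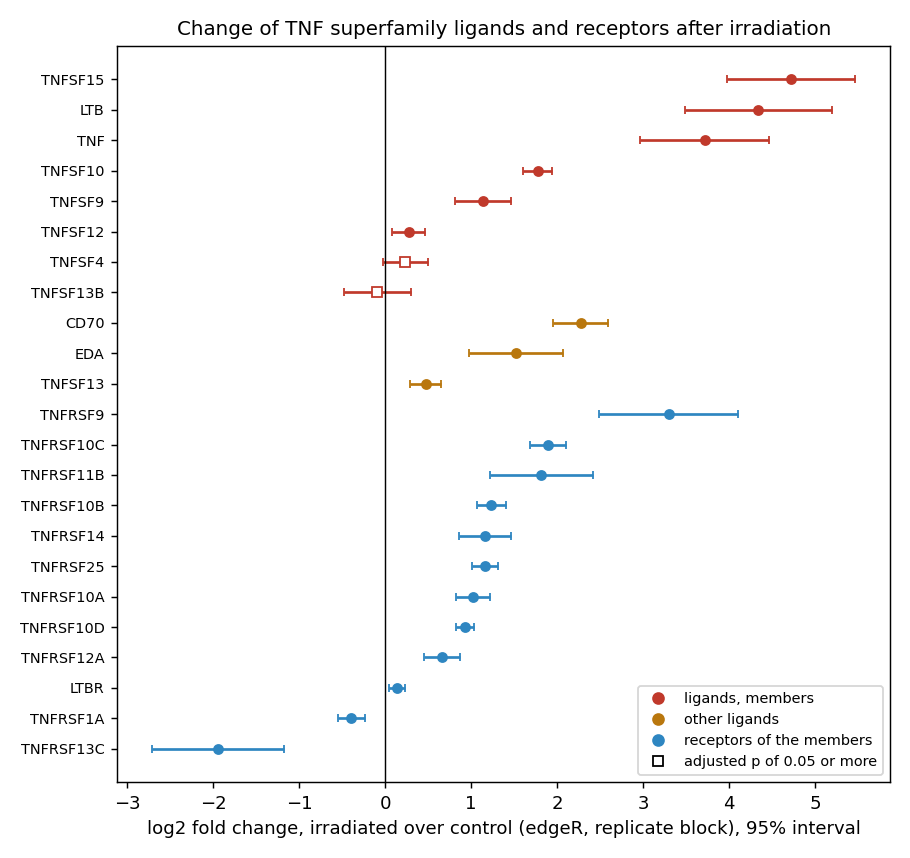
Log2 fold change, irradiated over control, from the edgeR fit with the replicate block (horizontal axis, points with 95% intervals) for the tested ligands of the 9 (red), other tested ligands of the superfamily (orange) and tested receptors (blue); open squares have an adjusted p of 0.05 or more. TNFSF15, LTB and TNF lie highest, TNFSF4 and TNFSF13B are open, and TNFRSF1A and TNFRSF13C are the only points called lower.

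Among 18 receptor adaptors and kinases, all tested, 9 rose, 2 fell and 7 did not pass, where 23.9% of all genes tested rose and 22.7% fell. The largest rises were those of BIRC3, an inhibitor of apoptosis that binds TRAF2, from 8.15 ± 2.86 to 82.1 ± 18.2 CPM (log2 fold change 3.37, SE 0.25, edgeR adjusted p = 5.65e-05), and of TRAF1, from 1.12 ± 0.271 to 5.1 ± 1.17 CPM (2.19, SE 0.21, adjusted p = 0.000162). CFLAR, an inhibitor of caspase-8 activation, rose by 0.50 (SE 0.07). CASP10, a caspase of the death receptors, fell by 0.74 on the log2 scale (SE 0.14). Without replicate 3 its log2 fold change was -0.57 (SE 0.07). TRAF5 fell by 0.26 (SE 0.06), though TRAF5 was not called without the replicate block. Of the central components, RIPK1 (log2 fold change 0.02, SE 0.04) and CASP8 (-0.01, SE 0.04) were not called, with 95% intervals within -0.07 to 0.12 and -0.11 to 0.09. BIRC3 and TRAF1 showed the smallest pair difference in replicate 2, as TNF and LTB did.

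Of 8 genes of ligand shedding and processing, all tested, 4 rose and 2 fell. For these and for the decay factors below, the shares over all genes tested were 23.9% called higher and 22.7% lower. TIMP3, an inhibitor of the TNF-releasing protease ADAM17, rose by 3.39 (SE 0.15, edgeR adjusted p = 1.08e-05), over a wide range of 5.33 to 34.4 CPM in irradiated samples. RHBDF2 and RHBDF1, the inactive rhomboid proteins that carry ADAM17 to the surface, rose by 1.0 (SE 0.07) and 0.58 (SE 0.04). ADAM17 itself stood at 61.7 ± 8.06 CPM in control and 51.9 ± 3.55 CPM in irradiated samples, and it fell by 0.24 on the log2 scale (SE 0.08, adjusted p = 0.034), a call that was lost when replicate 1, 4 or 5 was left out. Without replicate 3 its log2 fold change was -0.14 and still called (adjusted p = 0.0149). SPPL2B, an intramembrane protease that cleaves the TNF stub, fell by 0.32 (SE 0.06) and was not called without the replicate block. Of 5 factors that promote decay of TNF mRNA, all tested, RC3H1 rose by 0.66 (SE 0.06) and RC3H2 by 0.15 (SE 0.05), the latter lost in 10 of 14 alternatives, while ZFP36L2 fell by 0.59 (SE 0.04). ZFP36, which binds AU-rich elements of TNF mRNA, had a log2 fold change of 0.10 (SE 0.09, adjusted p = 0.355) and ZFP36L1 of 0.16 (SE 0.10, adjusted p = 0.215). Without replicate 3 both were called higher, ZFP36 at 0.20 (SE 0.06, adjusted p = 0.0334) and ZFP36L1 at 0.29 (SE 0.05, adjusted p = 0.00239). Both were also called with replicates 2, 4 and 5 alone, of which 4 and 5 may be less independent of each other.

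The genes whose pattern over the 10 samples lay closest to that of each called ligand were found by the root mean square (RMS) difference of log2 CPM, each gene centred on its own mean. For TNF they were TNFAIP3, an NF-κB target that restrains TNF signalling, IL32, a cytokine, and BIRC3, with RMS differences of 0.20, 0.21 and 0.26. For LTB they were DCLK1 (0.27), TNF (0.32) and a gene with no symbol, ENSG00000283265 (0.32). For TNFSF15 they were PI3, an elastase inhibitor (0.29), LTB (0.36) and the cytokine subunit IL23A (0.41). For TNFSF9 they were the innate immune receptor TLR2 (0.11), the adhesion molecule ICAM1 (0.16) and STEAP3 (0.16). For TNFSF10 they were SPTBN4 (0.13), SVIL (0.15) and TMEM255B (0.15), and for TNFSF12 ATP6V0E1 (0.07), YIPF3 (0.08) and TMEM25 (0.09), 3 genes of small change. These distances share the libraries and the contrast, and they are a description of likeness in these samples.

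Since many of the ligands are best known from leucocytes, markers of other cell types were read beside them. Leucocyte markers summed to 0.854 to 1.05 CPM over 12 genes in control and 2.08 to 2.84 CPM in irradiated samples. CD2 was at 0, CD3E, MS4A1 and TYROBP had 3 counts or fewer in all, and PTPRC (CD45) was not called (log2 fold change 0.27, SE 0.19, edgeR adjusted p = 0.283). The higher sum came with ITGAM, at 0.0436 ± 0.0241 CPM in control and 1.24 ± 0.37 CPM in irradiated samples, and CD14, at 0.268 ± 0.0609 and 0.57 ± 0.109 CPM. Endothelial markers summed to 1.32 to 2.45 CPM over 6 genes in control and 4.2 to 6.10 in irradiated samples, with KDR at 2 counts in all. Of 3 endothelial markers tested, CDH5 rose by 2.48 (SE 0.26) and PECAM1 by 0.72 (SE 0.15) on the log2 scale, and VWF was not called. Fibroblast markers summed to 15.9 to 23.5 and 28.6 to 40.1 CPM over 6 genes, with LUM and COL3A1 at 2 and 4 counts. Both fibroblast markers that were tested rose, DCN by 2.36 (SE 0.24) and COL1A1 by 0.78 (SE 0.07). The part of these markers in the levels of the ligands was not tested.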

How the data were processed

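Polyadenylated RNA of 5 control and 5 irradiated samples was sequenced as paired reads. Adapter trimming by the authors used Trim-Galore, and STAR placed the reads on GRCh38 and made the counts per gene in the same run. The deposited values are raw read counts per gene, without filter or normalisation, for 61587 genes. The release of the annotation is not given in the sources used here. Library preparation kits named in the labels and in the study's methods differ. All 10 sample columns were used.

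Differences between the groups were fitted by edgeR 4.0.16 under R 4.3.3 (TMM factors, glmQLFit, glmQLFTest, 2-sided) on 19006 genes with at least 200 counts over all samples, with replicate number as a block, as in the study's model. Benjamini-Hochberg adjustment was over all genes tested, and calls required an adjusted p under 0.05. The standard error was obtained from the fold change and the F statistic. The replicate numbers of the labels were taken to pair the samples. In the column names of the counts, the samples of a pair also share a B number. Deviations from the group means of samples with the same number correlated at 0.22 to 0.51, against -0.35 to 0.32 for different numbers. These ranges overlap, so they do not settle the pairing by themselves. Levels are TMM-normalised CPM, with TMM factors of 0.915 to 1.06. Levels per kb use exonic bases shared with no other gene (GENCODE, GRCh38). Counts of replicates differed by more than sampling noise in every pair of samples of a group (chi-square per gene of 8.50 or more), so each library was counted once. Replicates 4 and 5 were much closer to each other than any other pair in both groups (15.1 against 57.1 or more in control and 8.50 against 40.4 or more in irradiated samples), and they may be less independent than the rest. A floor of 3 counts corresponds to 0.0228 to 0.0453 CPM per library.

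Alternatives were DESeq2 1.42.0, limma-voom (limma 3.58.1), other scalings, other count limits, no replicate block, each replicate pair left out in turn, and replicates 2, 4 and 5 alone. The code of the test was run on simulated counts with a fixed spread and no replicate effect. Those settings are simpler than these data, so the run does not show how accurate the test is here. The 9 ligands and the gene lists were chosen with earlier results of these data known. Named are all ligands of the superfamily, all receptors of the 9, the 3 largest rises and falls called in each other list, CDKN1A and MKI67, and for each called ligand the 3 genes with the smallest RMS difference. Neighbouring genes, promoter motifs, and RIPK1, CASP8, ZFP36, ZFP36L1 the markers named and MICB were chosen with their values in view. Plots were made in Python 3.11.15 with matplotlib 3.10.9.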

Additional observations from a re-analysis of the deposited data

Results flagged for a closer look

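In 8 of 76 groups of 5 samples, 1 sample lay farther from the others than Dixon's test allows at 95%. If groups were independent, chance alone would flag about 1 in 20 (3.8 here). The groups share the same libraries, and most flags fell on control replicate 3, so 8 against 3.8 is not a test. Of the 8 flagged groups, 3 concerned the 9 ligands. TNFSF9 stood at 17.6 CPM in control replicate 3, against 9.14 to 11.2 CPM in the other control samples. TNFSF12 stood at 8.08 CPM in irradiated replicate 3, against 6.03 to 6.62 CPM. TNFSF13B stood at 0.887 CPM in control replicate 3, against 0.522 to 0.596 CPM.

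Control replicate 3 was also the highest control sample, beyond the same limit, for CASP10 (41.0 CPM against 24.0 to 27.0), RHBDF2 (48.9 CPM against 36.0 to 39.7), TIMP3 (3.56 CPM against 0.737 to 1.47) and CDKN1A (208 CPM against 66.7 to 80.9). TNFRSF1A stood at 138 CPM in irradiated replicate 2, against 114 to 118 CPM in the other irradiated samples.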

How the results depend on the processing

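Between 5 and 6 ligands were called higher, and none lower, in each of the 14 alternatives, including 5 without the replicate block, where TNFSF12 was lost, and 5 to 6 with 1 replicate left out. TNF, LTB, TNFSF15, TNFSF10 and TNFSF9 were called in all 14, with log2 fold changes of 3.43 to 4.07, 3.98 to 4.73, 4.33 to 5.10, 1.70 to 1.82 and 1.06 to 1.32. TNFSF12 was called in 8, with adjusted p-values from 0.019 to 0.10. The log2 fold change of TNFSF13B, not called in any, lay between -0.20 and 0.041 with 1 replicate left out and turned positive without replicate 3. RIPK1 and CASP8, close to 0 and not called in any, turned as well, RIPK1 to -0.0094 with upper-quartile scaling, -0.053 with library size, -0.012 with a limit of 1 count and -0.016 with replicates 2, 4 and 5, and CASP8 to between -0.024 and 0.011 with 1 replicate left out. Of 586 recomputed values of 42 named genes, 545 kept direction and side of the threshold, 29 lost their call, 4 gained one and 8 turned.

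With library size alone as the scaling, 38.0% of called genes were higher against 51.4% with TMM, the median log2 fold change of all genes was -0.09, and 4 adaptors were called lower in place of 2. Without the replicate block, which pairs the samples, 3640 genes were called higher and 3366 lower against 4550 and 4307, with 1 adaptor and 1 processing gene called lower. Leaving out 1 replicate gave 1 to 2 processing genes called lower and 1 to 4 decay factors called higher, the 4 without replicate 3. Replicates 2, 4 and 5 alone gave 1 receptor called lower. RC3H1 and RC3H2 were called in the reported fit, but 1 decay factor was called higher with DESeq2, upper-quartile scaling, library size, a limit of 1 count, filterByExpr and no replicate block. The causes of the other shifts were not tested. TNFSF14 and 6 other ligands of the superfamily had 0 to 45 counts in all and lay under the limit of the test.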
